A study of Homo sapiens with 6 samples.

Results

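AP-1 is a dimeric transcription factor built from leucine zipper proteins of the FOS family (FOS, FOSB, FOSL1 and FOSL2) and the JUN family (JUN, JUNB and JUND). The rows for these 7 genes were looked up by gene name in a table of 19823 genes, and 6 were found and tested. FOSL1 had no row and was not analysed here. RNA was sequenced from glutamatergic excitatory neurons made by doxycycline-driven NGN2 expression in the parental WTc11 line, a clonal human induced pluripotent stem cell line with dCas9-KRAB for CRISPR interference, in which cells that received the guide RNA were sorted. All 6 samples carried the RBM12 knockdown. The groups were 3 untreated samples and 3 treated with isoproterenol, an agonist that raises cAMP, with neither dose nor duration in the labels, and nothing states that replicates came from separate cultures. If they did not, the p-values measure only the spread between samples, which may be technical. Neurons with a control guide were not analysed here, and the values therefore describe knockdown neurons of 1 line and not an effect of RBM12.

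FOS proteins do not pair with each other and need a JUN partner to bind DNA, whereas JUN proteins can also pair among themselves. FOS, FOSB, JUN and JUNB are classical immediate early genes, which means that a stimulus raises their transcription without new protein synthesis. In neurons, a rise in cAMP activates protein kinase A, which phosphorylates CREB, and CREB binds the cAMP response element (CRE) in the promoters of many such genes. JUND is known for a high and steady level in many unstimulated cells. The comparison asked how transcripts of each AP-1 subunit differ between isoproterenol-treated and untreated RBM12-depleted neurons.

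All 6 genes were higher with isoproterenol, and in each of them the 3 treated values lay above the 3 untreated ones. Such a pattern was found in 6.73% of the 18130 genes tested. The members and the gene lists below were chosen with earlier results of these data known. The shares of all genes beside their counts are therefore description and not a test. The sizes differed widely, from 25.1-fold for FOSB and 3.81-fold for FOSL2 to 1.18-fold for JUN and 1.07-fold for JUND (ratios of group means). Among the rises of all genes tested, FOSB ranked 1, FOSL2 4, FOS 15, JUNB 228, JUN 2132 and JUND 4325. Larger rises than those of JUN and JUND were found in 11.75% and 23.85% of genes. In the limma fit that ignores replicate numbers, 0 of the 6 passed an adjusted p of 0.05 (Benjamini-Hochberg across the whole table), although all 6 had an unadjusted p under 0.05, as did 7.68% of all genes in either direction. That fit called 0.00552% of genes higher. Over 11587 genes, same-numbered samples of the 2 groups varied together. In the limma fit with the replicate number as a block 6 of the 6 members passed, where 2.82% of all genes were called higher. The blocked fit borrows variance from other genes, so its p-values, here and below, do not measure how alike a member's own pairs were. In pairs 1 to 3 the log2 changes of JUNB were 0.35, 0.79 and 1.14, against a blocked interval of 0.57 to 0.96. Some pairs also fell outside the blocked interval of FOSB, FOSL2 and JUN, but none outside that of FOS or JUND.

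Levels are given as normalized counts, the reads of a gene divided by the size factor of its sample. Recovered reads ran from 18116816 to 21488793 per sample, and the median log2 change over all genes was 0.0015. RBM12 itself was at 244.3 to 278.7 normalized counts in untreated and 194.6 to 237.6 in isoproterenol samples, so it was lower with isoproterenol without overlap. The part of this difference in the results was not tested, and the extent of the RBM12 depletion could not be measured. Glutamatergic markers, a list that also holds general neuronal genes, summed to between 162031 and 165390 normalized counts in untreated samples and between 162728 and 168129 in treated ones. STMN2 alone was at 64903 to 66029 in untreated samples, so the sum says little on glutamatergic identity. The glutamate transporter gene SLC17A6 was at 12451 to 14287 in untreated and 12393 to 14710 in treated samples. GABAergic markers, of which 3 of 7 had a row, summed to 55.3 to 60.0 and to 66.9 to 79.0, so these groups did not overlap, and their part in the results was not tested. In bulk RNA, more cells with a transcript and more transcript per cell cannot be told apart.

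FOS (ENSG00000170345; GRCh38 chromosome 14, 75278826 to 75282230, plus strand, 4 exons) encodes the founding FOS protein. Untreated replicates 1 to 3 held 535.7, 648.3 and 679.6 normalized counts, and isoproterenol replicates 1 to 3 held 1219, 1649 and 2338. The lowest treated sample lay 539.7 normalized counts above the highest untreated one, and the treated samples were more spread out, with a coefficient of variation of 32.5% against 12.2%. The log2 fold change was 1.44 (SE 0.28), with an adjusted p of 0.435 in limma and of 0.0268 once the replicate block was added.

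FOSB (ENSG00000125740; chromosome 19, 45467995 to 45475179, plus strand) encodes a FOS protein whose truncated splice form accumulates in neurons after repeated stimulation. The table gives 1 value per gene, so its isoforms were not separated, and the gene lies within the span of ERCC1 on the opposite strand, with 0 exonic bases in common. Untreated replicates 1 to 3 held 6, 2 and 10 FOSB reads, and the treated ones held 59, 120 and 261. FOSB was thus close to the limit of detection without the agonist, with 1 untreated sample under the limit of 3 reads. Its log2 fold change of 4.39 (SE 0.73) was the largest rise among the 18130 genes (adjusted p 0.273 in limma and 3.08e-16 with its block). Because the untreated reads are so few, the size is uncertain, with a 95% interval from 2.59 to 6.20 and a value of 3.67 with a pseudocount of 5 in place of 1. With the block the interval ran from 3.77 to 5.02. The log2 changes within pairs 1 to 3 were 3.04, 5.57 and 4.57, so those of pairs 1 and 2 lay outside it.

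FOSL2 (ENSG00000075426; chromosome 2, 28392448 to 28417317, plus strand), also known as FRA-2, encodes a FOS protein that lacks the strong activation domain of FOS. Untreated replicates 1 to 3 stood at 105.5, 69.7 and 106.5 normalized counts, and treated ones at 255.4, 253.7 and 563.1. Treated replicates 1 and 2 were nearly equal and replicate 3 stood far above both. The log2 fold change of 1.84 (SE 0.39) ranked 4 among the rises of all genes tested (adjusted p 0.442 in limma and 5.08e-12 with its block).

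JUNB (ENSG00000171223; chromosome 19, 12791486 to 12793315, plus strand, 1 exon) encodes a JUN protein that is induced early and can restrain the activity of JUN. It was at 244.3, 268.0 and 250.3 normalized counts in untreated samples and at 312.3, 464.8 and 553.9 in treated ones. The untreated samples were close together (coefficient of variation 4.84%) and the treated ones were not (27.5%). The log2 fold change was 0.76 (SE 0.19; adjusted p 0.399 in limma and 1.75e-07 with its block). JUNB shares 259 exonic bases with HOOK2 on the opposite strand, and whether the counting used the strand of the reads is not given in the sources used here, so its level is uncertain by the reads in these bases.

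JUN (ENSG00000177606; chromosome 1, 58776845 to 58784048, minus strand, 1 exon) encodes the main activating JUN protein and is known to be regulated by its own product. Its untreated values were 2728, 2578 and 2391 normalized counts and its treated values 2990, 3118 and 2943. Both groups were narrow, with coefficients of variation of 6.60% and 3.01%, and the gap between them was 214.4 normalized counts. The log2 fold change was 0.24 (SE 0.052; adjusted p 0.180 in limma and 5.43e-08 with its block).

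JUND (ENSG00000130522; chromosome 19, 18279694 to 18281622, minus strand, 1 exon) encodes the JUN protein with the steadiest known expression. It was at 4610, 4920 and 4918 normalized counts in untreated and at 4929, 5403 and 5177 in treated samples. Treated replicate 1 exceeded untreated replicate 2 by 8.88 normalized counts, so the separation of the groups was very small. The log2 fold change was 0.10 (SE 0.045; 95% interval 0.0076 to 0.196; adjusted p 0.616 in limma and 0.00979 with its block).

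**Figure D1:**
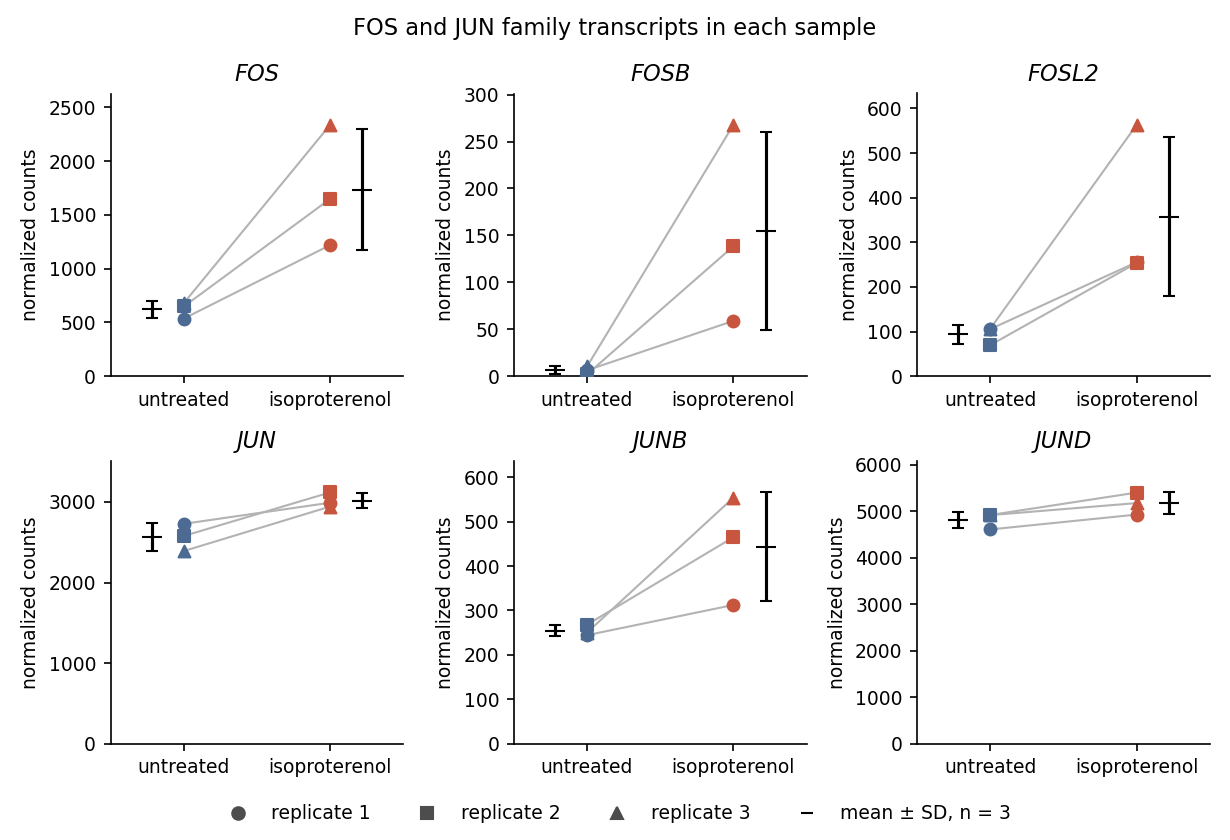
Normalized counts (vertical axis, from 0) of each AP-1 gene in the 3 untreated and 3 isoproterenol samples, with grey lines joining same-numbered samples and black bars for mean ± SD (n = 3). Isoproterenol values lay above untreated values in all 6 genes, with wide spread in FOS, FOSB, FOSL2 and JUNB and little distance between the groups in JUND.

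Within same-numbered pairs, all 6 genes were higher with isoproterenol in all 3 pairs, which held for 18.5% of all genes tested. FOS was 2.28-fold higher in pair 1, 2.54-fold in pair 2 and 3.44-fold in pair 3. Counting error alone gives pair 3 a 95% interval of 3.15 to 3.76, which lies above the interval of pair 2 (2.32 to 2.79), so the pairs differed in FOS by more than counting error. JUNB was 1.28-fold, 1.73-fold and 2.21-fold higher, and the intervals of pair 1 (1.08 to 1.52) and pair 3 (1.90 to 2.59) did not overlap. For FOSL2 the folds were 2.42, 3.64 and 5.29.

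Pair 3 showed the largest fold for FOS, FOSL2, JUN and JUNB, pair 2 for FOSB and JUND. The median log2 change over the 6 genes was 0.769, 1.07 and 1.46 in pairs 1, 2 and 3. FOSB was 9.40-fold, 71.5-fold and 25.9-fold higher, but with 2 untreated reads in pair 2 its counting interval there ran from 19.4 to 597 and overlapped those of the other pairs. JUN was 1.10-fold, 1.21-fold and 1.23-fold higher. JUND differed by 1.07-fold, 1.10-fold and 1.05-fold, with overlapping intervals.

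**Figure D2:**
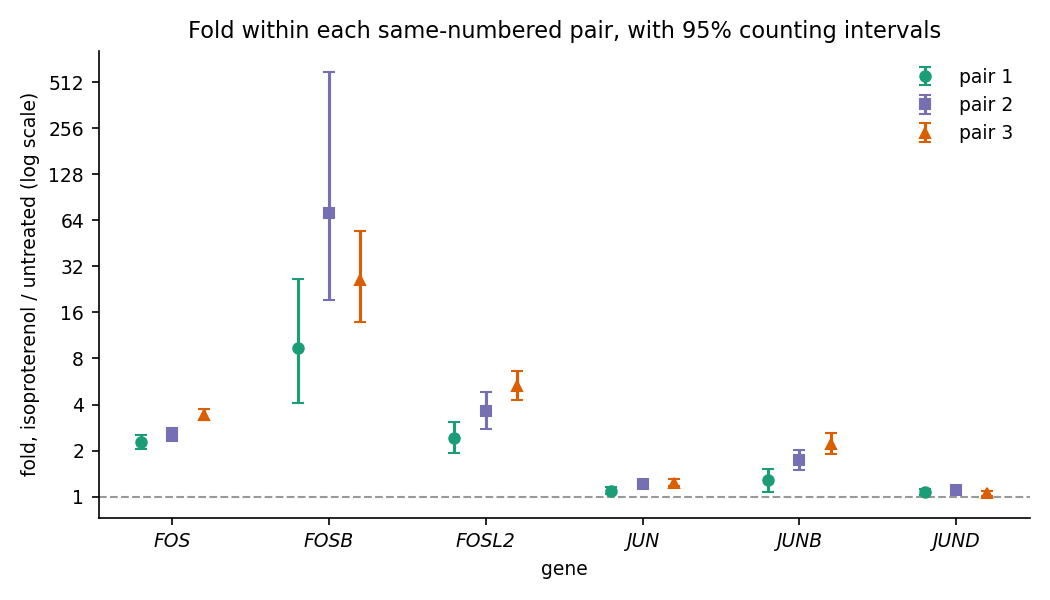
Fold of isoproterenol over untreated (log axis) for each gene in pairs 1 to 3, with 95% intervals that cover counting error only and a dashed line at 1. FOS, FOSL2 and JUNB sat highest in pair 3, the FOSB intervals were wide, and JUN and JUND stayed near 1.

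The replicate block and the choice of test decided which members passed. Across the fits without a block, limma and edgeR called 0 of the 6 members, while DESeq2 called 3, namely FOS (adjusted p 0.00106), FOSB (2.45e-04) and FOSL2 (0.0221), where 0.0938% of all genes were called higher. With the block, limma and edgeR called 6 and DESeq2 called 4 (FOS, FOSB, FOSL2 and JUN), where edgeR called 2.92% and DESeq2 0.518% of all genes higher. JUNB and JUND were therefore called higher in limma and edgeR with the block and in neither DESeq2 fit. Leaving out isoproterenol replicate 1 from the limma fit without the block brought FOSB (adjusted p 0.0155) and JUNB (0.00105) past the threshold, and leaving out isoproterenol replicate 3 did so for FOSB (0.0443) and FOSL2 (0.00193). For each single gene, a two-sided exact permutation test of 3 samples against 3 gave p = 0.1, the smallest value this design allows.

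**Figure D3:**
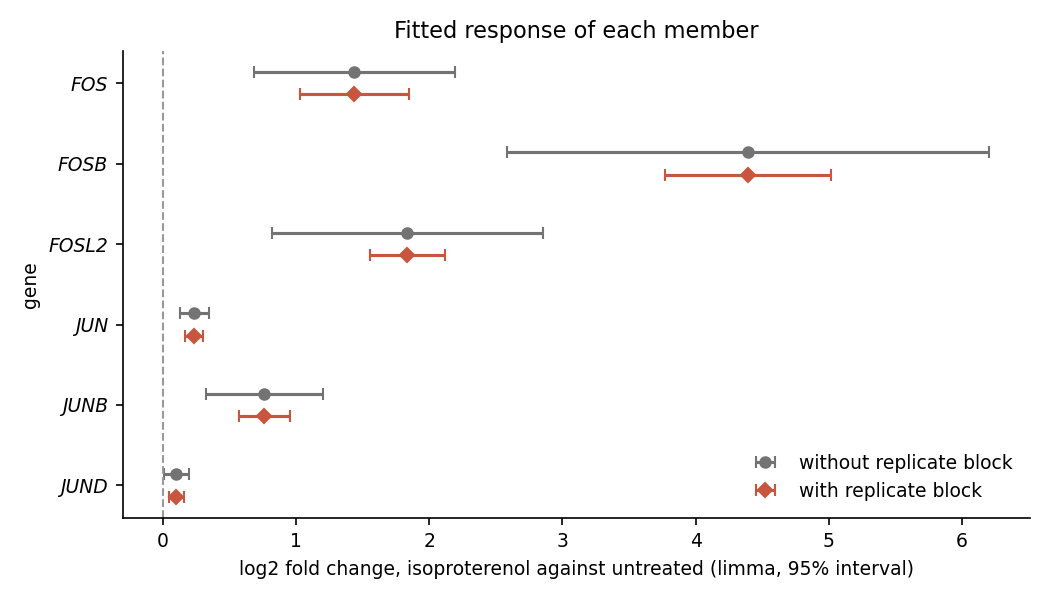
Log2 fold change of each gene, isoproterenol against untreated, with 95% limma intervals without (grey circles) and with (red diamonds) the replicate block. The estimates are equal in both fits (4.39 for FOSB to 0.10 for JUND), and the intervals are narrower with the block. Limma moderates the variance of each gene with that of all genes, so this narrowing does not measure how alike the pairs were.

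The responses of single members were then compared with each other as the log2 ratio of 2 genes in each sample, over all 15 pairs of genes. FOSB responded more than each other member, by 2.56 on the log2 scale against FOSL2 and by 4.29 against JUND, with no overlap of the groups. FOS exceeded JUNB by 0.67 and JUN by 1.20. FOSL2 exceeded JUNB by 1.07. These were among 12 comparisons that reached the smallest possible p of 0.1 (two-sided exact permutation test; adjusted p 0.125 over the 15). The difference between FOS and FOSL2 was not separated from the spread between samples (-0.40; exact permutation p 0.3), nor was that between JUN and JUND (0.13; exact permutation p 0.3) or between JUN and JUNB (-0.53; exact permutation p 0.2). All 15 differences had 1 sign in all 3 pairs, for example -0.08, -0.50 and -0.61 for FOS against FOSL2. No comparison passed 0.05, which 3 samples against 3 cannot reach.

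To compare levels between genes, normalized counts were divided by the length of the exons of each gene in kb. In untreated neurons the order was JUND (2497 ± 92.5 normalized counts per kb; SD, n = 3), JUN (708 ± 46.7), FOS (195 ± 23.8), JUNB (138.9 ± 6.73), FOSL2 (13.1 ± 2.93) and FOSB (1.11 ± 0.757). The ranges of neighbours in this order did not overlap. With isoproterenol the order of the means was the same, with FOS at 545 ± 177, JUNB at 242 ± 66.8, FOSL2 at 49.9 ± 24.9 and FOSB at 27.9 ± 19.0. The ranges of FOSL2 (35.4 to 78.6) and FOSB (10.6 to 48.2) then overlapped, although FOSL2 stood above FOSB in each sample. Among 18064 genes ranked by level per kb, FOSB moved from percentile 1.06 to 34.5, FOS from 75.8 to 91.9 and FOSL2 from 22.4 to 45.7. JUND stayed at percentile 99.1 and 99.2, and JUN at 94.1 and 95.3.

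Summed per kb, the FOS family stood at 184.0, 213.6 and 230.1 in untreated samples and at 429.0, 578.0 and 860.6 in treated ones. The JUN family was far more abundant and differed less, from 3276, 3408 and 3346 to 3551, 3915 and 3799. The ratio of FOS family to JUN family transcripts was 0.0562, 0.0627 and 0.0688 in untreated samples and 0.121, 0.148 and 0.227 in treated ones. It was 2.15-fold, 2.36-fold and 3.29-fold higher within pairs 1 to 3, so JUN transcripts remained in excess over FOS transcripts in every sample. Transcript levels do not give the amount of protein or of dimer.

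FOS made up 93.1% ± 1.98 of FOS family transcripts in untreated neurons and 88.0% ± 2.39 with isoproterenol (SD, n = 3). The share of FOSB was 0.529% ± 0.331 and 4.13% ± 1.57, and that of FOSL2, with overlapping groups, 6.34% ± 1.73 and 7.86% ± 1.55. In the JUN family, JUND held 74.7% ± 1.63 and 71.4% ± 0.666. JUNB held 4.15% ± 0.124 and 6.42% ± 1.58, and JUN, with overlapping groups, 21.2% ± 1.66 and 22.2% ± 0.949. The shares depend on the length used, since with coding length FOS held 84.1% and 75.5% of its family and JUND 62.1% and 58.9% of its own.

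**Figure D4:**
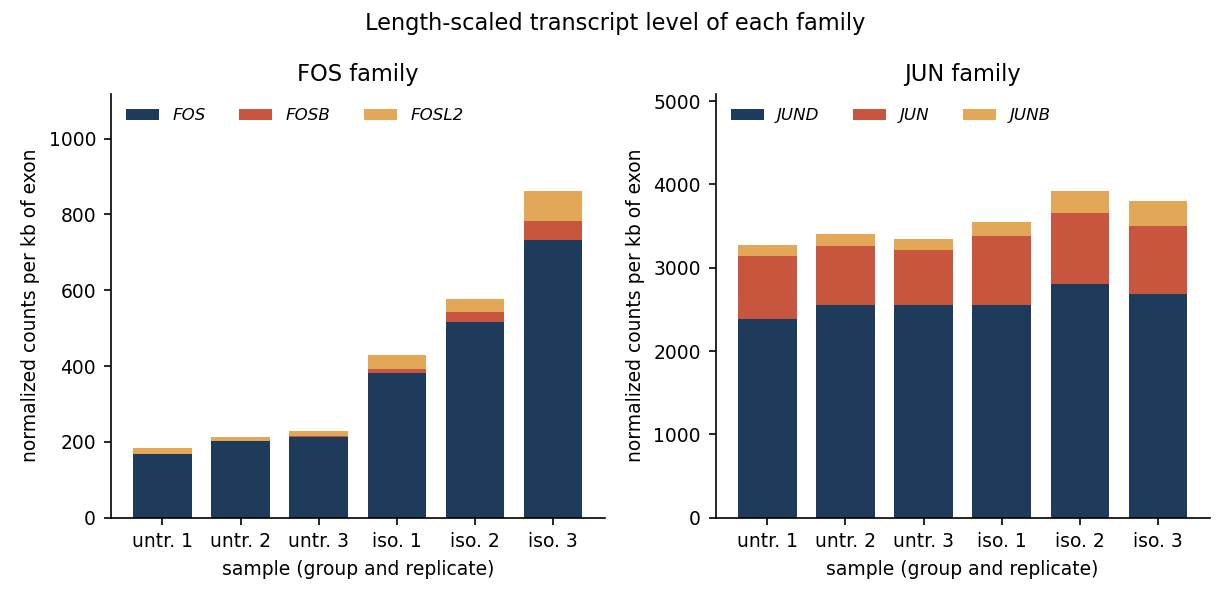
Normalized counts per kb of exon (vertical axes, from 0, on different scales) in each untreated (untr.) and isoproterenol (iso.) sample, stacked by gene for the FOS family and the JUN family. The FOS family sum went from 184.0 to 230.1 in untreated samples to 429.0 to 860.6 in treated ones, mostly as FOS, while the JUN family stayed between 3276 and 3915, mostly as JUND.

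Because the comparison concerns a cAMP-raising agonist, the promoters of the members were searched for the CRE. The 250 bases upstream of the RefSeq start (GRCh38.p14) are shown for FOS and FOSB, which were the FOS family genes with a single match, and for JUN and JUND, which were the JUN family genes with the smallest changes. All 6 members matched an entry in the promoter table. Sequences run 5′ to 3′ along the strand of the gene, and capitals mark matches to the motifs named below.
FOS, chr14:75278578-75278827, plus strand: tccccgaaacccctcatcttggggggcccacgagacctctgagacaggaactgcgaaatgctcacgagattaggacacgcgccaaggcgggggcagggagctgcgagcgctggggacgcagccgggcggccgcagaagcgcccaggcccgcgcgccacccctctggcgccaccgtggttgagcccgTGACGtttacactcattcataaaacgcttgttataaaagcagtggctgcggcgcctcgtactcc
FOSB, chr19:45467746-45467995, plus strand: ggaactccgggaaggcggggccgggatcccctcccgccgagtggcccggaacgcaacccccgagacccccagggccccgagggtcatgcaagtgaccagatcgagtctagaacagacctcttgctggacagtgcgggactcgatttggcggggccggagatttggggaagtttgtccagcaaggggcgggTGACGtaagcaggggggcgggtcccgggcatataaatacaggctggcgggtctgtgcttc
JUN, chr1:58784048-58784297, minus strand: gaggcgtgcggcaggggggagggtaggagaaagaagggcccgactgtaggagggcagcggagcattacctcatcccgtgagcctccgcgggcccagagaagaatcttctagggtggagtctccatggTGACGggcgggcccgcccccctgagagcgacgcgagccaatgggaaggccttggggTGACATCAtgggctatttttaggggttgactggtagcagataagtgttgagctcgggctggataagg
JUND, chr19:18281623-18281872, minus strand: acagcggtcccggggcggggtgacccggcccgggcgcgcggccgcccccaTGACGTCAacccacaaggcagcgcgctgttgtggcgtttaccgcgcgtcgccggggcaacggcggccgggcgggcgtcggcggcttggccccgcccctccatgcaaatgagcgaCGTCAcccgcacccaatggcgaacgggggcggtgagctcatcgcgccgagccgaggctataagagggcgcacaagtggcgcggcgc

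The core of the CRE, TGACG on either strand, was present in all 6 promoter windows, against 21.2% of 35116 RefSeq promoters. In FOS it lay 64 to 60 bases before the start, in FOSB 60 to 56 and in FOSL2 66 to 62, with another FOSL2 match at 201 to 197 on the opposite strand. The FOSL2 window (28392608 to 28392857) lay inside the span of that gene given above, because its RefSeq start lies downstream of the start of that span. JUN carried it at 123 to 119 and JUNB at 137 to 133. The full palindrome TGACGTCA, which contains the core on both strands, occurred in JUND alone among the members, at 200 to 193 before the start, and in 1.65% of all promoters. JUND, the member with the smallest fold, held a further core match at 86 to 82. The related TGACATCA, a motif added after the sequences had been read, occurred in JUN at 67 to 60 and in 2.37% of promoters. No match was found in these windows for the AP-1 site TGACTCA (4.20% of promoters) or for the CArG box bound by SRF (1.16%). A match is a run of letters and does not show binding, and elements farther upstream were outside the window.

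Genes that act with AP-1 went both ways. Of 15 dimer partners from the ATF, BATF, JDP and MAF families, 13 were tested, with a median log2 change of 0.022, against 1.10 for the members and 0.0015 over all genes. Without the block 0 passed in limma, where 3 of the 13 had an unadjusted p under 0.05 (7.68% of all genes). With the block 4 of the 13 rose and 1 fell, against 2.82% and 2.06% of all genes. ATF3, a stress- and cAMP-inducible factor that dimerizes with JUN proteins, was at 86.7, 77.4 and 113.8 normalized counts in untreated and at 119.7, 152.2 and 227.7 in treated samples (log2 fold change 0.81, SE 0.21; adjusted p 0.320 in limma and 8.76e-06 with its block). ATF4, a stress response factor, rose by 0.10 (limma adjusted p 0.0040 with the block). BATF3, which blocks FOS from JUN by competing for it, fell by 1.12 (0.0295) from 29.0 ± 5.28 to 14.8 ± 9.99, with overlapping groups.

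Regulators known to act on the FOS and JUN promoters were also measured as transcripts. Among 17 promoter regulators, including SRF, the ELK factors, CREB1 and its coactivators, 14 were higher and 3 lower, with a median of 0.035. With the block, CRTC1, a CREB coactivator, was the only one that passed, and it fell by 0.17 (limma adjusted p 0.00250). Among 17 kinases of the MAP kinase and protein kinase A routes the median was -0.014, and RPS6KA2, a ribosomal S6 kinase, alone passed with the block (log2 fold change 0.064; limma adjusted p 0.0314). None (0) of the 4 tested genes for ubiquitin ligase components that act on JUN passed in either limma fit, and 0 had an unadjusted p under 0.05. Of 9 factors that bind AU-rich elements, which mark FOS and JUN transcripts for decay, 6 were tested. With the block ELAVL4, a stabilizing neuronal factor, rose by 0.11 and HNRNPD, a destabilizing one, fell by 0.10 (limma adjusted p 0.0195 and 0.0209). Without the block 0 genes of these 4 lists passed in limma, and 2 of 17, 0 of 17, 0 of 4 and 2 of 6 had an unadjusted p under 0.05, against 7.68% of all genes. With the block, 2.82% of all genes were called higher and 2.06% lower. CRTC1, RPS6KA2, ELAVL4 and HNRNPD all had overlapping groups.

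Of 21 known AP-1 target genes, 14 were tested, with log2 changes from -0.37 to 0.43 and a median of 0.030. In limma without the block 0 passed, and 2 of the 14 had an unadjusted p under 0.05 (7.68% of all genes). With the block 3 of the 14 rose and 0 fell, against 2.82% and 2.06% of all genes. PENK, the enkephalin precursor, was at 2747, 1871 and 2948 normalized counts in untreated and at 3402, 2614 and 4112 in treated samples. Its groups overlapped, and within pairs it was higher by 0.31, 0.48 and 0.48 on the log2 scale (adjusted p 0.785 in limma and 1.19e-19 with its block). CCND1, which encodes cyclin D1, rose by 0.24 without overlap of its groups (adjusted p 0.116 in limma and 1.92e-10 with its block), and VEGFA by 0.24 (0.0350 with the block).

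Of 18 other immediate early genes, 16 were tested. The fitted change was above 0 in all 16, with a median log2 change of 0.509, and 13 of them were higher in all 3 pairs. In limma 1 passed without the block, the nuclear receptor gene NR4A3, which is named here because its values were known, and 10 of the 16 passed with it, against 2.82% of all genes called higher. Because the list was chosen with earlier results of these data known, this comparison is description only. NPAS4, a neuronal activity factor, was at 3.80 ± 4.18 and 69.3 ± 37.1 normalized counts (log2 fold change 4.24; limma adjusted p 3.89e-14 with the block), near the 4.39 of FOSB. EGR1, a zinc finger factor, rose by 1.13 with overlapping groups (adjusted p 0.698 in limma and 2.31e-19 with its block). GEM, a small GTPase, rose by 1.14 (adjusted p 0.582 in limma and 1.81e-14 with its block). IER3, an early response gene of cell survival, rose by 0.79 (limma adjusted p 2.80e-04 with the block). Of 12 stress genes, 3 were higher and 9 lower, with a median of -0.035. With the block 0 rose and 2 fell in limma, against 2.82% and 2.06% of all genes. TXNIP fell by a log2 change of -0.72 (adjusted p 0.857 in limma and 2.57e-06 with its block). The chaperone gene HSPA5 fell by one of -0.14 (0.59 and 3.27e-05). Both had overlapping groups. Of the 12 glutamatergic markers, GRIN1, an NMDA receptor subunit, was the 1 that passed with the block in limma (log2 fold change 0.29; adjusted p 2.67e-04). The sums of the stress genes overlapped, at 45847 to 49760 normalized counts in untreated and 45015 to 48235 in treated samples.

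**Figure D5:**
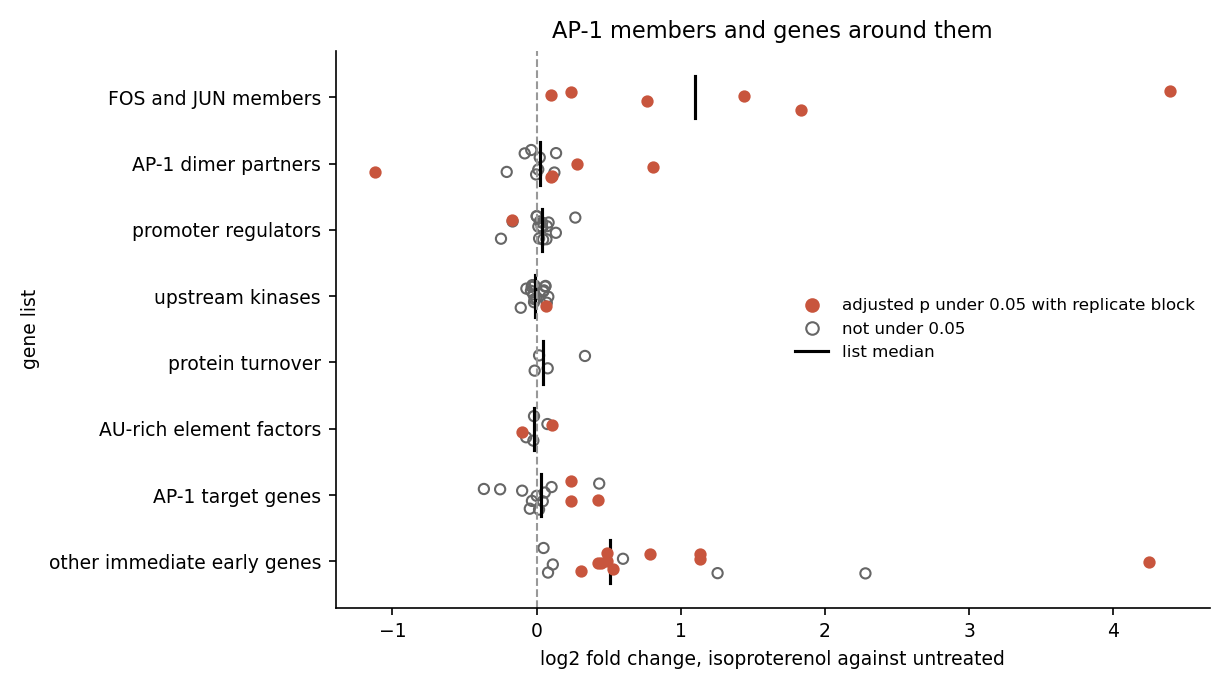
Log2 fold change (horizontal axis) of each tested gene in the AP-1 members and 7 lists around them, with red points for an adjusted p under 0.05 in limma with the replicate block and black bars for list medians. The members (median 1.10) and other immediate early genes (0.509) lie to the right of 0, and the medians of the other lists lie between -0.020 and 0.047.

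The genes whose levels were most like those of FOS were ranked by Pearson r of log2 levels over the 6 samples, among 11586 genes averaging 100 normalized counts or more. This is a description, since the samples fall into 2 groups and share their libraries. NR4A1, a nuclear receptor and immediate early gene, came first (r = 0.996) and was at 116.4 ± 16.9 and 630.7 ± 357 normalized counts. Its log2 fold change of 2.28 did not pass in limma (adjusted p 0.456, and 0.119 with the block). RAC3, CREB3L1 and NUDCD2 followed (0.993, 0.992 and 0.990) with log2 changes of only 0.08, 0.12 and 0.12, and the fifth was ENSG00000140474 (0.981; log2 change 0.14). JUNB ranked 16 (0.966), FOSL2 ranked 36 (0.947), JUND ranked 352 (0.818) and JUN ranked 648 (0.753). For JUN the nearest genes were ZCCHC9, FARP1, IGF1R, PRKX and TCF3 (0.992 to 0.977), and FOS ranked 602. FOSB fell under the limit on the mean and was not ranked.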

How the data were processed

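Poly(A) RNA-seq of 6 samples was analysed, with groups and replicate numbers taken from the sample titles. The authors used a directional library kit, aligned reads with STAR to GRCh38 and counted them with featureCounts, and the submitters' processing notes also name FastQC. Versions, the annotation and the strand setting are not given in the sources used here. The deposited signal of a gene is its read count divided by 1 DESeq2 size factor per sample (0.867 to 1.03). Whole reads were recovered for 100% of values (tolerance 0.01). Depth limits FOSB, where 3 reads equal 2.90 to 3.46 normalized counts. Intervals on folds (95%) cover counting error only.

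Genes with more than 5 reads in at least 4 samples were kept (18130 of 19823). Log2(normalized count + 1) was tested with limma 3.58.1 (R 4.3.3; trend, robust moderation, two-sided, Benjamini-Hochberg, threshold 0.05), without a block. Fold changes are on this scale, which understates the change of low genes. Alternatives were edgeR 4.0.16 (quasi-likelihood) and DESeq2 1.42.0 on the recovered reads, a replicate block, TMM and total-count scaling, pseudocounts 5 and 0.5, no filter, a mean of at least 50, no trend or robust moderation, each sample left out, and, chosen after seeing the data, each pair left out with the block. Limma with and without the block and edgeR without it were also run on simulated counts. These held no replicate effect, so they cannot test the block on paired samples.

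Over 11587 genes, the departure of a sample from its group mean correlated with that of the sample of the same number at 0.269, 0.493 and 0.388 (limit 0.1), and with that of other numbers at -0.351 to 0.0058. Departures sum to 0 within a group, so the correlations with other numbers are not separate evidence of pairing. On these data, not on the labels, the numbers were judged to pair samples. For the members, values with the block are therefore printed beside the unblocked main test. For some listed genes only the blocked value is printed. The exact permutation tests were unpaired. Replicates were distinct libraries (chi-square per degree of freedom 3.32 to 5.46). Positions and exon lengths came from GENCODE 44 (99.6% of identifiers found) and promoters from RefSeq. The members and gene lists were chosen with earlier results of these data known. Genes named are the members, in each list up to 4 genes past the threshold in limma with or without the block, by size of change,, and the 5 genes most like FOS and JUN. Further marker lists showed sums that overlapped between groups, for astrocytes (3138 to 3469 and 3026 to 3361 normalized counts), pluripotent cells (51.2 to 84.2 and 59.9 to 71.5), proliferation (125 to 152 and 130 to 151) and mesenchymal cells (15.5 to 24.2 and 15.4 to 25.4). Of the genes this rule names, 1 dimer partner is not reported here.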

Additional observations from a re-analysis of the deposited data

How the results depend on the processing

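Over 21 alternatives for each of the 6 members, all 126 log2 fold changes were above 0 and 0 reversed, so the direction held while the calls did not. Against 0 members called in limma without the block, the replicate block gave 6 in limma, 6 in edgeR and 4 in DESeq2, and DESeq2 without it gave 3. With the block and pair 1, 2 or 3 left out (added after seeing the data, with 1 residual degree of freedom per gene), 5, 5 and 6 were called, and JUND was the one lost. The limma adjusted p of FOS was then 1.10e-158, 5.71e-129 and 9.67e-81, against 0.0268 with all pairs. It was also smaller each time for FOSB and FOSL2, went both ways for JUN and JUNB, and was larger for JUND. Fewer samples cannot add such evidence, so these fits rest on variance borrowed from other genes and do not check the calls. Leaving out 1 sample gave 0 to 2 members, with 2 without isoproterenol replicate 1 or 3. Genes called among all those tested, 3 in the main comparison, numbered 21 in DESeq2, 885, 977 and 143 with the replicate block in limma, edgeR and DESeq2, 531, 665 and 456 with pair 1, 2 or 3 also left out, 0 in limma without trend or robust moderation (where 0 members passed), and 2 to 70 with 1 sample left out, 70 being without isoproterenol replicate 2. The remaining scalings, pseudocounts and filters gave 2 to 4 genes and 0 members. With 1 sample left out, the log2 fold change ran from 1.20 to 1.67 for FOS, 3.85 to 4.96 for FOSB, 1.46 to 2.03 for FOSL2, 0.19 to 0.28 for JUN, 0.58 to 0.995 for JUNB and 0.07 to 0.14 for JUND. Adjusted p over the alternatives ran up to 0.622 for FOSB and up to 0.9995 for JUND. Family shares moved by more than their SD with canonical-transcript length, coding length or no division by length in 27 of 36 values, while the sign of each difference between groups held. The causes were not tested.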
